A study of Mus musculus with 14 samples.

Results

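The MEF2 factors and the class IIa histone deacetylases (HDACs) were taken as the 8 genes Mef2a, Mef2b, Mef2c, Mef2d, Hdac4, Hdac5, Hdac7 and Hdac9. The members were all regions with values in both tables whose gene symbol was 1 of these 8, which gave 8 regions of 14881, at 7 of the 8 genes. Hdac5 had 2 regions, the other 6 genes had 1 each, and no region with values carried the symbol Hdac4, which was not analysed further here. Every one of the 8 regions passed the filter on low values in both tables.

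MEF2 proteins are transcription factors of muscle, neurons, lymphocytes and endothelium that bind an AT-rich site through a MADS domain, and in neurons they couple calcium entry to genes that shape synapses. Class IIa HDACs bind MEF2 through a short stretch near their amino terminus and hold it in a repressing state. Calcium-dependent and salt-inducible kinases phosphorylate these HDACs, 14-3-3 proteins then carry them out of the nucleus, and MEF2 is freed to activate its targets. H3K4me3, trimethylation of lysine 4 of histone H3, is a mark found mainly at active or poised promoters. The values below describe this mark at regions assigned to these genes, and not their RNA or protein. Whether each region lies at a promoter was not checked.

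H3K4me3 ChIP-seq was available for the cortex of C57BL/6J mice aged 3 months, and no engineered allele is named in the labels. Nicotine was compared with saccharin, the control, in mice exposed only after birth (4 libraries per treatment) and in mice exposed both before and after birth (3 libraries per treatment). The treatment text is shared by all samples and gives delivery of either solution to pregnant mice from conception, an end at day 21 and rest to day 90, so nothing but the group names defines the postnatal-only course. Whether replicates are separate animals is not labelled, so p-values refer to these samples and not to a spread between animals. The tests (limma) drew most of each variance from a trend over all regions. Their standard errors, intervals and p-values therefore do not measure the spread of a single region alone. Cortex is a mixture of cells, and fewer marked cells cannot be told apart from less mark per cell.

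Adjusted read counts summed to between 2004918 and 2489860 in the postnatal libraries and to between 1445810 and 2372855 in the others. Postnatal libraries 1 and 2 of a group, and likewise 3 and 4, were as close as counting noise allows (1.01 to 1.08 times its variance, where the remaining pairs reached 2.21 to 2.71). These pairs were averaged, giving n = 2 against 2 after postnatal and n = 3 against 3 after pre- and postnatal exposure. The 15 strongest regions took between 8.30% and 25.5% of the signal of a postnatal library, and between 19.1% and 49.7% of that of a pre- and postnatal one. Of 15 markers of cortical and forebrain neurons 11 had a region, and Neurod6, Rbfox3 and Syt1 were among those that had none. Mef2c and Hdac7 are also expressed outside neurons. Of 9 microglia and macrophage markers only Irf8 had a region, at 1.41 to 11.4 across samples. Regions were found for 6 of 10 endothelial and mural, 8 of 11 oligodendrocyte, 3 of 9 astrocyte and 3 of 8 interneuron markers. No marker of these lists passed the nicotine test in either exposure.

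Promoter sequences from RefSeq (build GRCm38.p6) were available for all 8 genes in 14 windows, each reaching from 250 bases before a gene start to 50 bases after it. The deposited regions are on build mm9, so the windows were not placed inside them, and the link between both is the gene alone. The bases before the start are shown for the most CpG-rich window of a pair of strongly marked genes and a pair of weakly marked ones, 5′ to 3′ on the strand of the gene, with each CpG in capitals.
Mef2d (chr3:88142122-88142371, plus strand): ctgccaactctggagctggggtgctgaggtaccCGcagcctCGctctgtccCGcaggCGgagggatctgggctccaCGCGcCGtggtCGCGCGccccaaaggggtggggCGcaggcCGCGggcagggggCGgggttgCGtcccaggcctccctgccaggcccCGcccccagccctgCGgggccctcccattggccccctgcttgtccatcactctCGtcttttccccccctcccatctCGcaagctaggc
Mef2a (chr7:67372859-67373108, minus strand): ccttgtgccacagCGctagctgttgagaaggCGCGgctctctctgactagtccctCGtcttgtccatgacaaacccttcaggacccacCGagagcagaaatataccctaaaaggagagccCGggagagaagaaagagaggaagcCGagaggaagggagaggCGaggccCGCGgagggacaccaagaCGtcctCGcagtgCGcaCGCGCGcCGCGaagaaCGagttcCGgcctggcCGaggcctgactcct
Mef2c (chr13:83523406-83523655, plus strand): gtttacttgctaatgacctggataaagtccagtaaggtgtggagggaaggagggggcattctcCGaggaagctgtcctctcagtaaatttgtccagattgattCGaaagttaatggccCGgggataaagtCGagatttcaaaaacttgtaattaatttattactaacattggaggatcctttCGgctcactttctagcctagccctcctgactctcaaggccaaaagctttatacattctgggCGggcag
Hdac9 (chr12:34528890-34529139, minus strand): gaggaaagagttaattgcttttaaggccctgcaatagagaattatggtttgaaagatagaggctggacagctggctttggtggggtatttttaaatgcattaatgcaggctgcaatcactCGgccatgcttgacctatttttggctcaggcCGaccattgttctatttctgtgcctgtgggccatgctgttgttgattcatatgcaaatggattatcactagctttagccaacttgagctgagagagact

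Both of the strongly marked genes had many CpG in these 250 bases, 19 for Mef2d and 21 for Mef2a, and the others few, 6 for Mef2c and 2 for Hdac9. The other Mef2c windows held 1 and 4 and the other Hdac9 window 0. Hdac7 held 25 in its richest window and 5, 6 and 21 in its others. Hdac4 held 23, Hdac5 12 and Mef2b 9. The 4 genes with 12 or more CpG and a region were the 4 with the highest signal per kb, and the 3 genes with 9 or fewer were the 3 with the lowest, in both tables. These bounds are the gap between Mef2b and Hdac5. Within the sets the order did not follow CpG number. Hdac7, with the most CpG, had the lowest signal per kb of the strong set, and Mef2c lay above Mef2b, in both tables. More signal at more CpG was also seen, more loosely, over 7467 genes with a window and a region. Genes with at most 9 CpG had a median of 35.7 per kb in postnatal saccharin samples (1372 genes) and genes with 12 or more had 72.2 (5546 genes). Spearman's rank correlation between CpG number and signal per kb was 0.437 in the postnatal and 0.422 in the pre- and postnatal table, across genes that share libraries and are no independent replicates.

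**Figure D1:**
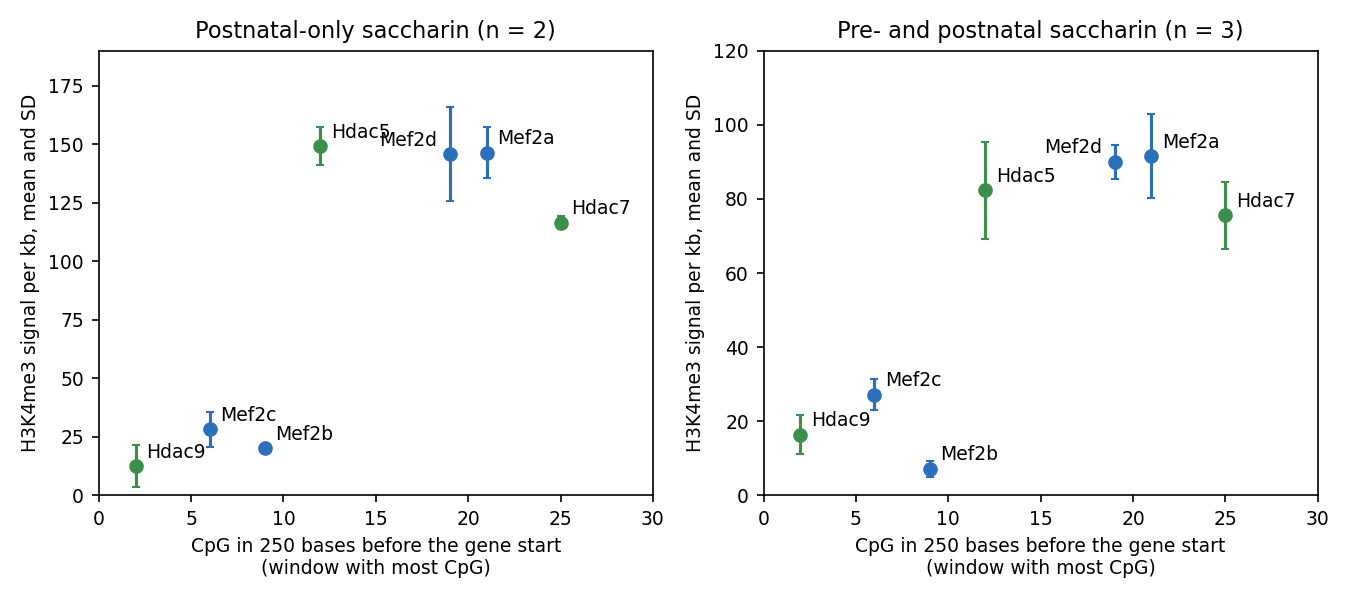
Number of CpG in the 250 bases before the gene start (x axis, the window with the most CpG) against H3K4me3 signal per kb of region in saccharin samples (y axis, mean and SD; adjusted read counts per kb), for the strongest region of each gene; MEF2 genes are blue and HDAC genes green. Mef2c, Mef2b and Hdac9 lie at 2 to 9 CpG and at most 28.2 per kb, and Mef2a, Mef2d, Hdac5 and Hdac7 lie at 12 to 25 CpG and at least 75.5 per kb.

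The MEF2 consensus site was searched on both strands, where its palindromic pattern reads alike, in all 14 windows of 300 bases. 1 match each was found at Mef2a and Hdac5 and none in the other 12 windows, where 3.19% of all 32851 windows held a match. They are shown with 8 bases on either side and the site in capitals.
Mef2a, from 2 bases before the start to base 8 after it: cctgactcCTAAAAATAGccccggtg
Hdac5, from 20 to 11 bases before the start: gtctgagcCTATTTTTAGctcggggt
A match describes these letters only, and no binding of MEF2 was measured.

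Levels fell into a strong and a weak set. In postnatal saccharin samples the stronger Hdac5 region (chromosome 11, 102090122 to 102091803; mm9) held 149 ± 8.12 per kb (SD, n = 2), Mef2a (chromosome 7, 74516255 to 74518936) 147 ± 10.8, Mef2d (chromosome 3, 87945523 to 87948277) 146 ± 20.1 and Hdac7 (chromosome 15, 97660499 to 97662874) 117 ± 2.78. These lay at or above the 84.5th percentile of all regions per kb. Hdac5, Mef2a and Mef2d overlapped in range, and Hdac7 lay below Mef2d without overlap. Far below came Mef2c (chromosome 13, 83663523 to 83666096) with 28.2 ± 7.33 per kb, the weaker Hdac5 region (chromosome 11, 102079027 to 102080532) with 27.0 ± 1.94, Mef2b (chromosome 8, 72681958 to 72683058) with 20.1 ± 0.0671 and Hdac9 (chromosome 12, 35212382 to 35213623) with 12.6 ± 8.88. The median over all regions was 50.2 per kb, so each of the 4 lower regions was below it. Mef2c and the weaker Hdac5 region overlapped in range, and the others of this set did not overlap with the next.

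In pre- and postnatal saccharin samples the order was similar, and the strong set took the first 4 places again. Mef2a held 91.6 ± 11.4 per kb (SD, n = 3), Mef2d 90.1 ± 4.62, the stronger Hdac5 region 82.3 (67.4 to 91.7) and Hdac7 75.5 ± 8.97, and each overlapped the next in range. Mef2c held 27.1 ± 4.14, the weaker Hdac5 region 20.2 ± 6.44, Hdac9 16.4 ± 5.29 and Mef2b 7.18 ± 2.13, the last at the 0.356th percentile of all regions. Mef2c ranked at the 26.7th percentile per kb in the postnatal table and at the 41.8th in this one. The tables were adjusted separately, so only ranks and not levels can be set side by side. Mef2a, Mef2c, Mef2d and Hdac7 had regions 2375 to 2754 bp wide, above the median width of 1583 bp. Mef2c thus had a wide region with little signal per kb.

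The first comparison asked whether nicotine given only after birth left a difference in H3K4me3 at these genes. At the strong regions the groups differed by no more than 0.08 on the log2 scale. Mef2a held 412, 425, 400.1 and 404 in nicotine libraries 1 to 4 and 424, 403, 383 and 362 in saccharin libraries 1 to 4. After averaging, the nicotine samples (402 and 419) overlapped the saccharin ones (372 and 413), and the log2 difference was 0.06 ± 0.11 (SE), a 95% interval of 0.895-fold to 1.22-fold. Mef2d, the family member with the most signal in this table, held 442, 416, 416 and 385 with nicotine and 446, 435, 372 and 353 with saccharin. The groups overlapped and the difference was 0.05 ± 0.12. The signs of both differences turned under other scalings (-0.01 and -0.03 with quantile normalization).

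Hdac7, a class IIa HDAC best known from endothelium and thymocytes, held 321, 282, 265 and 307 with nicotine and 276, 287, 274 and 270.3 with saccharin. The averaged samples did not overlap, with nicotine higher, although single libraries did, and the log2 difference was 0.08 ± 0.11 (SE). The stronger region of Hdac5, a kinase-controlled repressor studied in brain for its response to drugs of abuse, held 304, 266, 233 and 251 with nicotine and 272, 249.9, 253 and 230.0 with saccharin. Its groups overlapped and the difference was 0.07 ± 0.12. It was 0.24 among samples with a high share of signal in the strongest regions and -0.11 among those with a low share.

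The larger differences were at weak regions, with lower signal after nicotine at Mef2c, Mef2b and the weaker Hdac5 region. Mef2c, a MEF2 factor of neuronal differentiation and synapse number, held 78.4, 56.3, 43.6 and 29.7 with nicotine and 57.1, 61.2, 76.7 and 95.1 with saccharin. Nicotine libraries 3 and 4 were low and saccharin libraries 3 and 4 high, and the averaged groups overlapped. The log2 difference was -0.51 ± 0.27 (SE), with a 95% interval of 0.473-fold to 1.04-fold. It was -0.94 without nicotine libraries 1 and 2, -0.08 without nicotine libraries 3 and 4, -0.78 without saccharin libraries 1 and 2 and -0.25 without saccharin libraries 3 and 4. Mef2b, the family member best known from B cells, held 16.6, 16.2, 18.3 and 19.4 with nicotine and 22.1, 22.1, 24.0 and 20.4 with saccharin. Every nicotine library was below every saccharin library, at low signal, and the difference was -0.32 ± 0.38. These libraries count as 2 samples per treatment, and the averaged groups were apart with nicotine lower at 14% of all regions.

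The weaker Hdac5 region, which lay at lower coordinates than the stronger one, held 24.0, 36.6, 22.8 and 40.7 with nicotine and 36.9, 40.2, 46.3 and 39.1 with saccharin. The averaged samples did not overlap, while nicotine library 4 lay among the saccharin libraries, and the log2 difference was -0.38 ± 0.28 (SE). Hdac9, a class IIa HDAC expressed in brain and muscle, held 18.5, 19.2, 7.02 and 11.2 with nicotine and 10.6, 5.03, 22.4 and 24.5 with saccharin. Each group held a high and a low pair and the groups overlapped (-0.05 ± 0.54).

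None of the 8 regions passed the test in limma (every adjusted p = 1.00), and 0% of 14873 regions did. The unadjusted p was under 0.05 at 281 regions (1.89%), none of them a member. 4 of the 8 lay higher with nicotine and 4 lower, where 49.1% of all regions lay higher, with a median of 0.00149 on the log2 scale beside -0.00364 over all regions. The averaged groups did not overlap at 3 of the 8, Hdac7 higher and Mef2b and the weaker Hdac5 region lower, against 29.1% of all regions (15% higher and 14% lower).

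**Figure D2:**
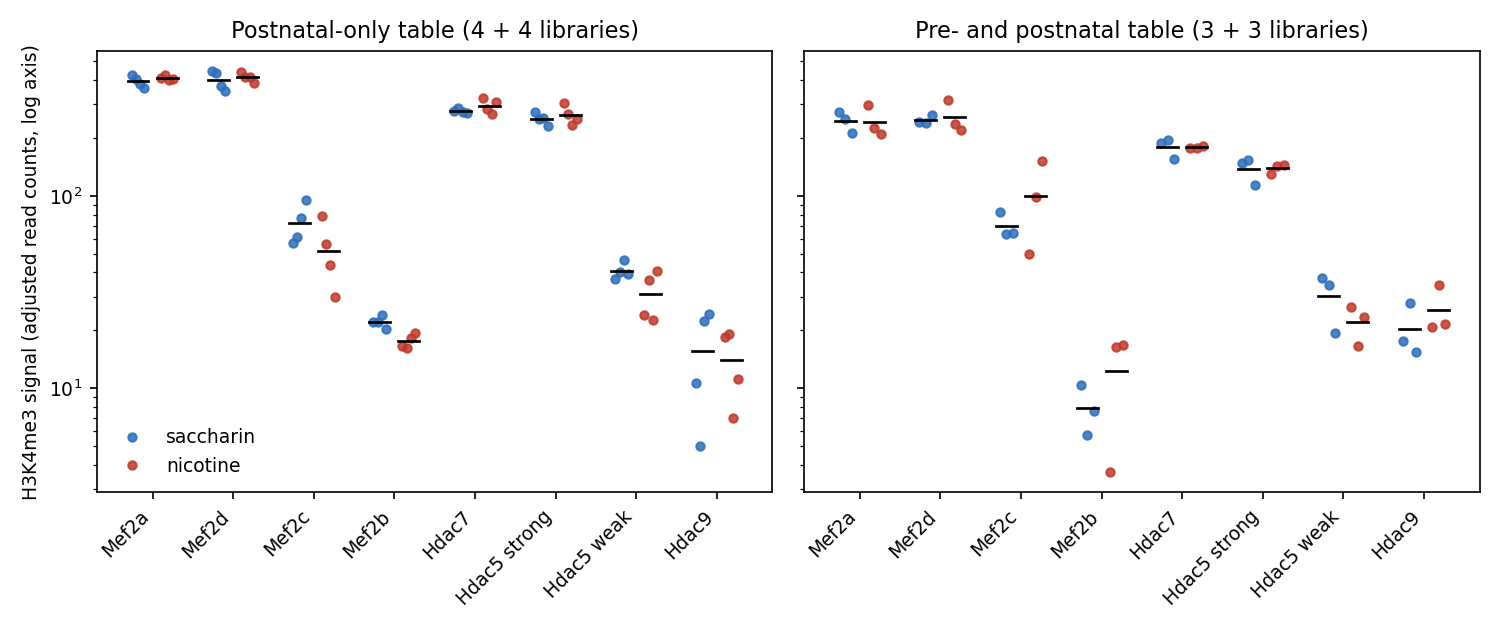
H3K4me3 signal (y axis, adjusted read counts, log axis) in each library at the 8 regions, saccharin in blue and nicotine in red, with a black bar at the mean of the libraries; the left panel shows the postnatal-only table and the right panel the pre- and postnatal table. Mef2a, Mef2d, Hdac7 and the stronger Hdac5 region lie above 100 in every library in both panels, while Mef2c runs from 29.7 to 95.1 in the left panel and from 50.0 to 151 in the right.

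Pre- and postnatal exposure was examined in the same way. Mef2c held 50.0, 99.1 and 151 in nicotine libraries 1, 3 and 4 and 82.1, 63.5 and 63.8 in saccharin libraries 1 to 3. The nicotine libraries took the lowest and both highest places, so the groups overlapped. The log2 difference was 0.39 ± 0.28 (SE), with a 95% interval of 0.875-fold to 1.95-fold and the opposite sign to the postnatal one. It was 0.81 without nicotine library 1, 0.02 without nicotine library 4, and 0.32 to 0.51 without any 1 of the other libraries. With the replicate number as a block it was -0.04. Only libraries 1 and 3 have a number that occurs in both groups.

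The other MEF2 regions differed little or rested on low signal. Mef2d held 315, 237 and 221 with nicotine and 241, 240.0 and 263 with saccharin (log2 difference 0.04 ± 0.15, SE). Mef2a held 295, 225 and 210.0 with nicotine and 272, 252 and 212 with saccharin (-0.02 ± 0.16). In both, nicotine library 1 was the highest of all 6 and the groups overlapped. Mef2b held 3.66, 16.5 and 16.7 with nicotine and 10.4, 5.70 and 7.64 with saccharin, so that nicotine library 1 was the lowest and the other two the highest (0.38 ± 0.61). The Mef2b difference was 0.74 with quantile and 0.68 with cyclic loess normalization, -0.13 with the replicate block, and 0.06 (without nicotine library 4) to 1.02 (without nicotine library 1) over the libraries left out.

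Among the HDACs, Hdac7 held 178, 177 and 183 with nicotine and 187, 196 and 155 with saccharin. The nicotine libraries lay within the saccharin range, at a log2 difference of 0.0061 ± 0.15 (SE). The stronger Hdac5 region held 129.8 to 145 with nicotine and 113 to 154 with saccharin (0.02 ± 0.17). The weaker Hdac5 region held 26.6, 16.5 and 23.6 with nicotine and 37.4, 34.4 and 19.3 with saccharin, lower with nicotine as in the postnatal table but with overlap (-0.41 ± 0.37). Hdac9 held 20.8, 34.3 and 21.6 with nicotine and 17.7, 27.8 and 15.4 with saccharin (0.32 ± 0.38).

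None of the 8 regions passed the test (limma, adjusted p 0.987 to 0.999), as 0% of 14879 regions did. The unadjusted p was under 0.05 at 534 regions (3.59%), again without a member. 6 of the 8 lay higher with nicotine, against 50.5% of all regions, and 3 of 8 with either quantile or cyclic loess normalization, so the direction of the list depends on the scaling. The median was 0.03 on the log2 scale beside 0.0027 over all regions. At 0 of the 8 regions were the groups apart, against 8.95% of all regions (4.49% higher and 4.46% lower). Of the markers of neighbouring brain regions, 7 of 7 with a region lay lower with nicotine in this table (median -0.40), and 6 of 7 with quantile or cyclic loess normalization. Their summed signal was 214 to 235 in nicotine libraries and 275 to 284 in saccharin libraries, none of the 7 passed the test, and the lowest value of any of them in a library was 4.87. After postnatal exposure 3 of the 7 lay higher and 4 lower. Cortical and forebrain neuron markers lay lower at 8 of 11 in both exposures (medians -0.06 and -0.05). With quantile normalization 6 of these 11 lay higher after postnatal exposure. After pre- and postnatal exposure 3 of 3 interneuron markers lay lower, while 5 of 8 oligodendrocyte and 2 of 3 astrocyte markers lay higher. With quantile or cyclic loess normalization 1 of the 3 interneuron markers lay higher there, and after postnatal exposure 2 of 3 did as fitted. The summed interneuron signal overlapped after pre- and postnatal exposure, at 38.2 to 66.6 with nicotine and 45.9 to 67.5 with saccharin. The part of these marker differences in the member values was not tested.

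**Figure D3:**
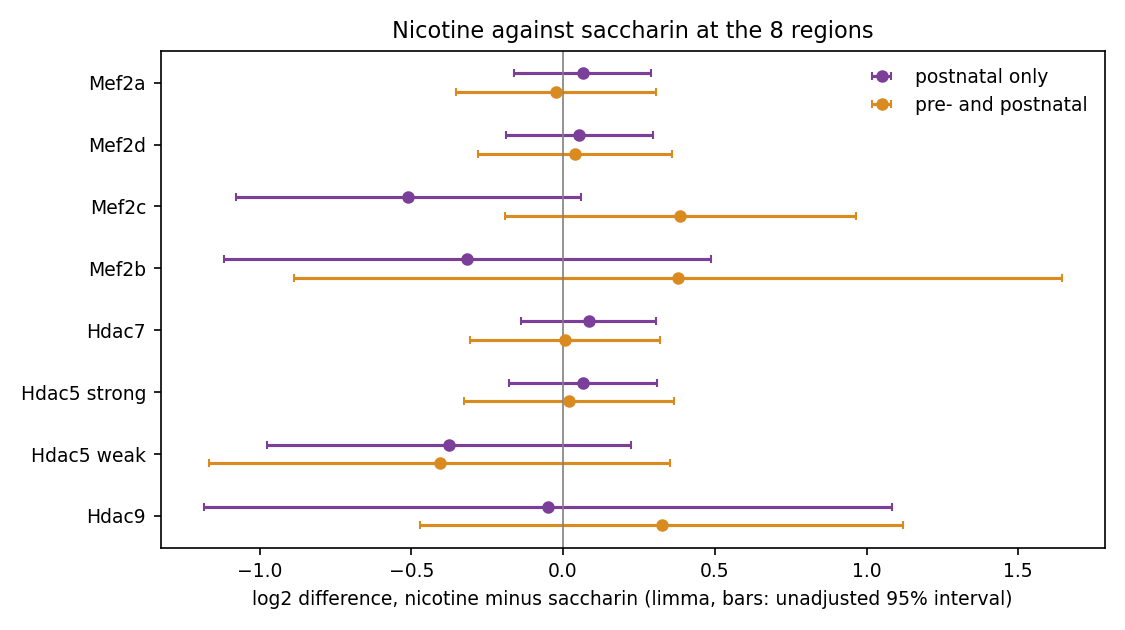
Log2 difference between nicotine and saccharin (x axis; limma, log2 of signal plus 1; bars give the unadjusted 95% interval) at the 8 regions, for the postnatal-only exposure in purple and the pre- and postnatal exposure in orange. Every interval includes 0, and the intervals of the weak regions Mef2c, Mef2b, the weaker Hdac5 region and Hdac9 are wider than those of the strong ones.

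The exposures were set against each other by the difference of their log2 differences. At Mef2c the pre- and postnatal difference was higher than the postnatal one by 0.90 ± 0.39 (SE), and at Mef2b by 0.70 ± 0.72. At the other 6 regions the gap was -0.09 to 0.38. None passed the test (z test on the limma fits, adjusted p = 1.00 for all 8, with 0% of 14871 regions called). At an unadjusted p under 0.05, 1 of the 8 passed, Mef2c, against 3.65% of all regions. This z test used limma standard errors drawn mostly from the trend, and the spread of Mef2c itself was larger, as given below. The unadjusted p of Mef2c thus does not measure its own spread. The pre- and postnatal side of the Mef2c gap was 0.39 as fitted, -0.04 with the replicate block and 0.02 without nicotine library 4, and the postnatal side was -0.08 without nicotine libraries 3 and 4.

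Mef2c also varied more within groups than regions of like level. Its residual SD on the log2 scale was 0.504 in the postnatal table, against a median of 0.180 over the 1000 regions closest in level, and 0.583 against 0.244 in the pre- and postnatal table. It was larger than that of 98.4% and 98.3% of these regions. Hdac9 stood at 95.2% in the postnatal and 43.2% in the pre- and postnatal table. Mef2a, Mef2d, Hdac7 and both Hdac5 regions lay between 7.70% and 85.8%, and Mef2b at 6.40% and 67.9%. These are descriptions with 2 or 3 samples a group. The limma standard errors given for Mef2c are smaller than its own spread alone would give. Those given for the weaker Hdac5 region, Mef2b and Hdac7 in the postnatal table (0.28, 0.38 and 0.11) are larger, beside residual SDs of 0.079, 0.095 and 0.044. With 2 samples a group their own spread is poorly known as well.

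The spread of Mef2c was read against how much of a library's signal the 15 strongest regions took (its share), a property of the libraries that crosses treatment. In the postnatal table nicotine libraries 1 and 2 and saccharin libraries 3 and 4 had a high share. The averaged high samples held 67.3 (nicotine) and 85.9 (saccharin) at Mef2c and the low ones 36.7 (nicotine) and 59.2 (saccharin), so that the classes did not overlap. High exceeded low by 0.69 ± 0.19 on the log2 scale (SE, adjusted p = 0.0105 in limma). Hdac9 held 18.8 and 23.4 in the high samples and 9.13 and 7.84 in the low ones, a difference of 1.22 ± 0.36 (adjusted p = 0.0258). These 2 of 8 regions passed, both higher, against 4.69% of all regions in either direction and 3.91% higher. They were also the postnatal members with the widest spread within groups for their level. The classes split that same spread, so the count is not independent of it and lends no further support. Of the oligodendrocyte markers 5 of 8 also lay higher in the high class, and 1 passed, the myelin gene Mag (28.5 ± 2.31 against 14.4 ± 2.96, SD, n = 2 each; 0.95, adjusted p = 0.0478). The median of this list was 0.02, and its summed signal was 643 and 687 in the high samples and 655 and 666 in the low ones. Along the share of the pre- and postnatal libraries 1 of the 8 rose and 7 fell (median -0.07). Endothelial and mural markers lay higher in the high class at 5 of 6 (median 0.11) and cortical and forebrain neuron markers at 4 of 11, without a call. The part of the markers in the result was not tested. The other 6 member regions differed by -0.09 to 0.06, and 5 of the 8 member regions lay higher, against 49.7% of all regions. In this fit limma took the variance almost wholly from a trend over all regions, so neither p measures the spread of Mef2c or Hdac9 itself. Without a trend the adjusted p was 0.294 for Mef2c and 0.0845 for Hdac9. The Mef2c call was lost without nicotine libraries 3 and 4 (0.36, adjusted p = 0.560) and without saccharin libraries 3 and 4 (0.52, adjusted p = 0.335). The Hdac9 call was lost without any 1 of the 4 samples, at 1.07 to 1.37.

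In the pre- and postnatal libraries Mef2c also tended to lie higher at a higher share. From the lowest to the highest share it held 50.0 (19.1%), 63.5 (28.8%), 63.8 (33.1%), 82.1 (39.9%), 151 (41.9%) and 99.1 (49.7%), rising except for the last library. The slope was 0.42 ± 0.11 on the log2 scale per 10 percentage points of share (SE, n = 6, adjusted p = 0.0469 in limma), and 1 of the 8 passed against 1.01% of all regions. The slope was above 0 at 5 of the 8, against 48.7% of all regions. Here too most of the variance came from the trend over all regions, and without a trend the limma adjusted p was 0.400. The call was also lost with treatment as a term (slope 0.40, adjusted p = 0.100). It was lost as well without any 1 library other than saccharin library 1, at slopes of 0.32 to 0.56. Without both libraries farthest from the median share, nicotine 1 and 3, the slope was 0.80 ± 0.24 (adjusted p = 0.471). Mef2b also rose (0.69 ± 0.29, adjusted p = 0.273) and Mef2d fell along the share (-0.13 ± 0.06, adjusted p = 0.363), but neither passed. Hdac9 did not repeat its postnatal pattern clearly, at 0.13 ± 0.19 (adjusted p = 0.821).

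Within the postnatal classes the nicotine difference at Mef2c was -0.35 in the high and -0.67 in the low class, each from 1 sample against 1. Mef2b kept its sign as well (-0.41 and -0.22), as did the weaker Hdac5 region (-0.48 and -0.27) and Hdac7 (0.15 and 0.02). Mef2a, Mef2d, the stronger Hdac5 region and Hdac9 took opposite signs in the classes. With the class as a term the postnatal fit called 9 regions and no member.

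**Figure D4:**
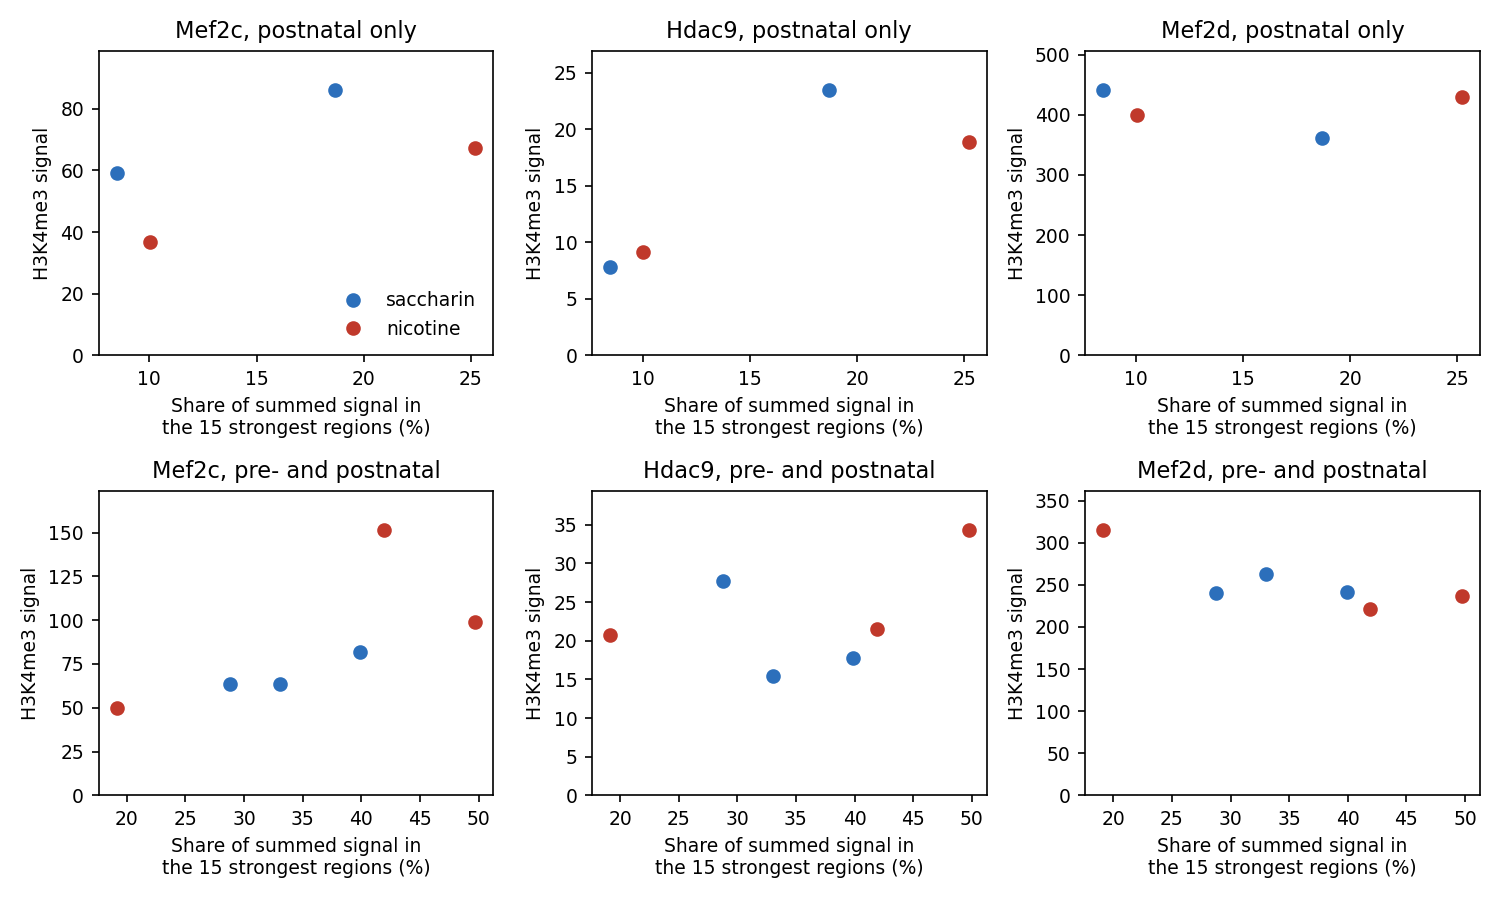
H3K4me3 signal (y axes, adjusted read counts, from 0) against the share of a sample's summed signal in the 15 strongest regions (x axes, %), for Mef2c, Hdac9 and Mef2d in the averaged postnatal samples (upper row) and the pre- and postnatal libraries (lower row), saccharin in blue and nicotine in red. In the postnatal samples Mef2c lies higher in the class of high share (67.3 and 85.9) than in that of low share (36.7 and 59.2). It falls with the share within each class. In the pre- and postnatal libraries it rises with the share except at the last library, from 50.0 to 151. Hdac9 is also higher in the postnatal class of high share, and Mef2d does not rise with the share.

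The 3 genes whose pattern was most like that of Mef2c over the 10 samples were Lrrtm4, an adhesion protein of excitatory synapses, Ppm1f, a protein phosphatase, and Arhgef2, a guanine nucleotide exchange factor bound to microtubules. Likeness was the root mean square difference of log2 values centred within each table, which was 0.143, 0.150 and 0.152 for these genes, beside a median of 0.540 over 11387 regions with a gene. It was 0.487 for Hdac7, 0.582 for Mef2a and 0.592 for Mef2d. Like Mef2c, all 3 were lowest in nicotine libraries 3 and 4 among postnatal samples and highest in nicotine library 4 among the others. Ppm1f parted from Mef2c in being highest after postnatal exposure in nicotine libraries 1 and 2, and lowest after pre- and postnatal exposure in saccharin library 2. These profiles share libraries, so the likeness includes whatever the libraries have in common.

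Within 250 kb of the Mef2c region lay 5 other regions, all 191 to 220.0 kb away on the side of higher coordinates and 4 of them without a gene. In the pre- and postnatal table all 5 were higher with nicotine, by 0.03 to 0.41 on the log2 scale, against 50.5% of all regions. After postnatal exposure 2 of 5 were higher (-0.25 to 0.07), against 49.1% of all regions. Between the share classes 0 of the 5 passed the test. Around each of the other member regions with neighbours, of which they had 1 to 19, 0 or 1 neighbour passed it. Over all regions 4.69% passed it.

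The kinases that phosphorylate class IIa HDACs had regions for 16 of 17 listed genes and none passed the test in either exposure. After postnatal exposure 8 lay higher and 8 lower with nicotine (median -0.0031 on the log2 scale). Sik3, a salt-inducible kinase, had 379 ± 4.42 against 318 ± 4.93 (SD, n = 2 each; 0.25 ± 0.10, SE), and Prkd3, a protein kinase D, had 194 ± 0.403 against 159 ± 9.68 (0.28 ± 0.12). After pre- and postnatal exposure 10 lay higher and 6 lower (median 0.09). Camk2a, the alpha subunit of the calcium-dependent kinase CaMKII, had 81.7 ± 8.05 against 60.6 ± 4.29 (SD, n = 3 each; 0.42 ± 0.20), and Camk1g 35.0 ± 7.00 against 23.8 ± 3.00 (0.53 ± 0.32). The postnatal median turned to 0.0099 and 0.00058 under quantile and cyclic loess normalization.

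The 14-3-3 proteins, which bind the phosphorylated HDACs, had 6 of 7 genes measured. After postnatal exposure 5 lay higher (median 0.11), led by Ywhaz with 673 ± 20.1 against 545 ± 19.4 (SD, n = 2 each; 0.31 ± 0.11, SE) and Ywhae with a log2 difference of 0.18. After pre- and postnatal exposure 2 lay higher and 4 lower (median -0.07), with Ywhag at -0.37 and Ywhae at -0.16. With quantile and cyclic loess normalization 0 and 1 of the 6 lay higher there (medians -0.12 and -0.11). Of 10 co-repressor partners 7 were measured, with medians of 0.01 and -0.01. Tbl1x lay at 0.19 and Ctbp1 at 0.09 after postnatal exposure, and Ctbp2 at -0.14 and Gps2 at 0.17 after the other. The postnatal median turned to -0.04 and -0.05 under quantile and cyclic loess normalization. Of the 6 other histone deacetylases 5 were measured, with medians of -0.06, which turned to 0.0057 and 0.03 under the same scalings, and 0.13. Hdac11, the class IV enzyme, lay at -0.07 and -0.24. Hdac2 held 367 ± 30.1 against 335 ± 2.53 after postnatal exposure (0.13 ± 0.11), and Hdac8 28.8 ± 11.1 against 15.2 ± 4.52 after the other (SD, n = 3 each; 0.83 ± 0.42).

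Activators and co-activators of MEF2 had 11 of 13 genes measured, of which 9 lay higher with nicotine after postnatal (median 0.08) and 8 after pre- and postnatal exposure (median 0.05). With quantile or cyclic loess normalization 7 lay higher after postnatal (medians 0.02 and 0.02) and 6 after pre- and postnatal exposure (0.01 and 0.02). Ep300, a histone acetyltransferase, had 452 ± 8.33 against 393 ± 7.32 (SD, n = 2 each; 0.20 ± 0.10, SE) and Map2k5 lay at -0.22 after postnatal exposure. Ash2l, a subunit of H3K4 methyltransferases that MEF2 factors are known to recruit, lay at 0.28 and the kinase Mapk14 at 0.19 after the other. Of 18 activity-regulated genes reported as MEF2 targets 15 were measured. Nicotine samples were lower at 11 of them after postnatal exposure (median -0.04). Nptx2, a secreted pentraxin of synapses, differed by -0.34 ± 0.15 and the neurotrophin gene Bdnf by -0.28 ± 0.20. After pre- and postnatal exposure 10 lay higher (median 0.03, but 7 of 15 and -0.005 under quantile normalization), with the synaptic scaffold Homer1 at 0.27 and Mdm2 at -0.27. Among these targets Klf6 and Rgs2 passed the limma test between the share classes (high over low 0.55 and 0.62, adjusted p = 0.000913 and 0.0208). Both lay higher in the high class, as Mef2c did, 2 of 15 where 3.91% of all regions were called higher. This contrast was chosen after seeing the data, and the classes split the spread within groups, so the count lends no further support. Limma took the variance of this fit almost wholly from the trend over all regions, so neither p measures the gene's own spread. Along the share of the pre- and postnatal libraries neither passed (Klf6 slope 0.38, adjusted p = 0.0552; Rgs2 slope 0.01, adjusted p = 0.974). In all 6 lists 0 genes passed the nicotine test in either exposure.

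**Figure D5:**
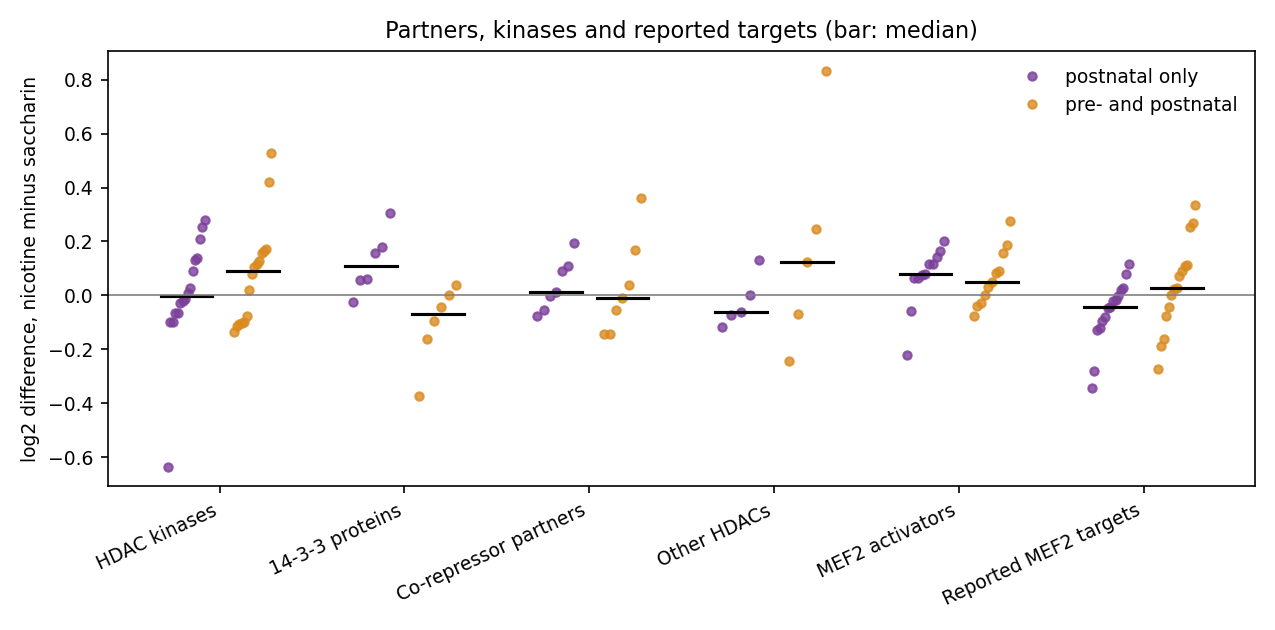
Log2 difference between nicotine and saccharin (y axis; limma, log2 of signal plus 1) for each measured gene of 6 lists around MEF2 and the class IIa HDACs, postnatal-only exposure in purple and pre- and postnatal in orange, with a black bar at the median of each list. No point passed the test, and the medians lie between -0.07 and 0.13.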

How the data were processed

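Cortex libraries for H3K4me3 were amplified in 18 PCR cycles, per the labels' protocols. The authors deposited 1 table of signal per exposure on build mm9, holding per-region read counts that they had adjusted with edgeR, per the submitters' processing notes. Aligner, peak caller and software versions were not given in the sources used here, and the raw depth is unknown. Values were present in 14881 of 19203 rows. RefSeq held the transcript identifier of 6 of the 7 member genes.

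A count test had been planned for whole counts only, and the values were not whole. Limma 3.58.1 (R 4.3.3) with trend was therefore applied to log2(value + 1), for regions with at least 1 in as many samples as the smaller group. Each exposure was fitted alone, two-sided, with Benjamini-Hochberg adjustment over all regions and a threshold of 0.05. For a listed gene the strongest region was used. Every member region was named, with the 3 genes most like Mef2c and, from each partner list, at most 2 genes per exposure with the lowest p for nicotine. Klf6 and Rgs2 were named in addition because they passed the test between the share classes. Plots used matplotlib 3.10.9 (Python 3.11.15), and simulated counts with known changes served to test the fits.

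Same-numbered postnatal samples deviated in opposite directions (r = -0.47), and same-numbered pre- and postnatal libraries by r = -0.09 and -0.07, so the numbers were not taken to pair samples. Strongest regions were those with a postnatal mean over 3000. Alternatives were a pseudocount of 5, no filter, other scalings, a replicate block, no trend, leaving out samples, separate postnatal libraries, summed regions of a gene and a term for that share. The members and lists were chosen with earlier results of these data known. The tests against the share and the 250 kb windows were chosen after seeing the data.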

Additional observations from a re-analysis of the deposited data

How the results depend on the processing

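No member passed the nicotine test under any alternative (limma, lowest adjusted p = 0.155 over 204 values). Regions called after postnatal exposure numbered 0, but 1 with the replicate block, 9 with the class of high or low share as a term (which is the crossed pairing), 7 without nicotine libraries 1 and 2 and 31 without nicotine libraries 3 and 4 (0 to 31 over the samples left out). After pre- and postnatal exposure they numbered 0 with the replicate block, 1 without a trend and 17 without nicotine library 1 (0 to 17). The block turned pre- and postnatal Mef2c to -0.039, Mef2a to 0.098 and Mef2b to -0.13, and changed no other sign.

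Quantile and cyclic loess normalization turned postnatal Mef2d (-0.028 and -0.028) and Mef2a (-0.013 and -0.016), and pre- and postnatal Mef2d (-0.041 and -0.024), Hdac7 (-0.046 and -0.040) and the stronger Hdac5 region (-0.014 and -0.014). Loess also turned postnatal Hdac9 (0.014). Summing both Hdac5 regions gave 0.011 after postnatal and -0.045 after pre- and postnatal exposure. The share as a covariate gave 0.013 at pre- and postnatal Mef2a. Within the class of low share the postnatal differences were -0.11 (stronger Hdac5 region), 0.20 (Hdac9), -0.14 (Mef2d) and -0.040 (Mef2a). Leaving out samples gave, after postnatal exposure, -0.051 to 0.18 at the stronger Hdac5 region, -0.78 to 0.68 at Hdac9, -0.087 to 0.19 at Mef2d and -0.011 to 0.14 at Mef2a, with Hdac9 at 0.43 without nicotine libraries 3 and 4. After pre- and postnatal exposure it gave -0.12 to 0.10 at the stronger Hdac5 region, -0.094 to 0.072 at Hdac7, -0.11 to 0.14 at Mef2d and -0.17 to 0.076 at Mef2a. No sign turned at the other members: after postnatal exposure Mef2c gave -0.94 to -0.08, Mef2b -0.41 to -0.22, the weaker Hdac5 region -0.45 to -0.30 and Hdac7 0.05 to 0.12. After pre- and postnatal exposure Mef2c gave 0.02 to 0.81, Mef2b 0.06 to 1.02, the weaker Hdac5 region -0.69 to -0.22 and Hdac9 0.10 to 0.56. Where an arm kept 1 sample, it was assumed to vary like the other group.

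The relations to the share kept their direction and often lost the call. Mef2c between postnatal classes was 0.63 with quantile (adjusted p = 0.106) and 0.63 with loess normalization (0.0759), 0.69 without a trend (0.294), and 0.36 to 1.03 over the samples left out (0.00149 to 0.560), with 0.52 without saccharin libraries 3 and 4. Its pre- and postnatal slope was 0.42 with quantile normalization (0.153), 0.42 without a trend (0.400), 0.40 with treatment as a term (0.100) and 0.32 to 0.56 over the libraries left out (0.0350 to 0.478). Hdac9 between classes was 0.84 with quantile (0.220) and 0.83 with loess normalization (0.242), 1.22 without a trend (0.0845) and 1.07 to 1.37 over the samples left out (0.0690 to 0.313), among them 1.12 without saccharin libraries 1 and 2 and 1.32 without nicotine libraries 3 and 4. The cause was not tested. Replicate number and the unknown raw depth limit what these tables can show at the weak regions.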
